A study of Mus musculus with 3 samples.

Results

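The genes described here are 44 genes of collagen and connective tissue matrix, measured in peritoneal macrophages of mice on 3 one-colour microarrays. They were taken by name: every probe whose gene name, or current symbol through its accession, was on the list, which gave 74 of the 41174 probes. Of these genes, 33 had a probe well above background on at least 1 array, out of 14561 such genes on the arrays as a whole. The list was drawn up with results of these arrays known, so the differences below describe its members and support no claim about them.

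All cells came from male Swiss albino mice aged 8 weeks, in 3 groups of 10 animals. All 3 groups received 125 µg lipopolysaccharide, a bacterial cell wall component that draws macrophages into the peritoneum, on day 0. The control group received 100 ng TPA (12-o-tetradecanoyl phorbol 13-acetate, a phorbol ester and tumour promoter) on day 4. The other groups received that dose of TPA together with 35 or 70 nmol of potassium dichromate (K2Cr2O7), a hexavalent chromium salt, per the labels' protocols; the sample labels give the same amounts as Cr(VI). Cells were washed out of the peritoneal cavity 4 days later. Each group had 1 array, and the labels do not say whether its RNA came from 1 animal or from several, so that no difference has a replicate check and no test was possible. The labels name no sort of the lavage cells, and markers of other cells are given beside the results.

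Connective tissue matrix is built mainly by fibroblasts and related mesenchymal cells. Fibrillar collagens are secreted as procollagen trimers, trimmed by proteases and crosslinked by lysyl oxidases, while small leucine-rich proteoglycans set the spacing of the fibrils and matrix metalloproteinases and their inhibitors (TIMPs) govern turnover. In the peritoneum the matrix lies beneath the mesothelium, and macrophages themselves are known for fibronectin, thrombospondin and proteases more than for fibrillar collagen.

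At 70 nmol, type I and type III collagen, decorin, fibulin 2, SPARC and the crosslinking enzyme Loxl1 lay 2.46-fold to 4.16-fold above the control. The brightest fibronectin probe lay 1.19-fold below the control, and thrombospondin 1 lay 2.45-fold below it. At 35 nmol these collagen genes lay close to the control, between -0.14 and 0.24 on the log2 scale. When arrays were scaled on spike-in RNA instead, they lay between -0.56 and -0.18. A level here is the log2 processed signal of a gene's brightest probe minus the array's 75th percentile, and a difference is the level with chromate minus that of the control. A gene counts as measured between arrays where the probe passed the scanner software's flag for signal well above background on each of them. Of the 25 members measured at 70 nmol against the control, 12 (48.0%) lay above it by 2-fold or more and 1 lay below it by 2-fold or more. Over all 12541 measured genes these shares were 1.63% above and 1.08% below; the list was chosen on this contrast, so nothing is read from these shares. The members' median difference was 0.96 (all genes 0.038), 21 were positive and 4 negative, and the values ran from -1.29 to 2.06. A further 7 members were well above background only on the 70 nmol array, which brought those above by 2-fold or more, bounds included, to 15, where the share over all genes was 2.27%.

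At 35 nmol, 23 members were measured, of which 1 (4.35%) lay 2-fold or more above and 1 lay 2-fold or more below, where all 12730 measured genes gave 1.12% and 0.299%. Their median difference was 0.16 (all genes 0.039), and it took the opposite sign, -0.26, when arrays were scaled on spike-in RNA. No member was seen on the 35 nmol array alone, and 3 were seen on the control array and not on the 35 nmol array. Set against 35 nmol, the 70 nmol array had 9 of 23 measured members (39.1%) higher by 2-fold or more and 1 lower by as much, where all 12387 measured genes gave 0.92% and 0.718%, with a median of 0.62 (all genes 0.002). A further 9 members were seen at 70 nmol and not at 35 nmol, which gave 13 higher by 2-fold or more with bounds included (1.59% over all genes). Both chromate arrays were set against the same control array, so the comparisons are not independent.

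**Figure D1:**
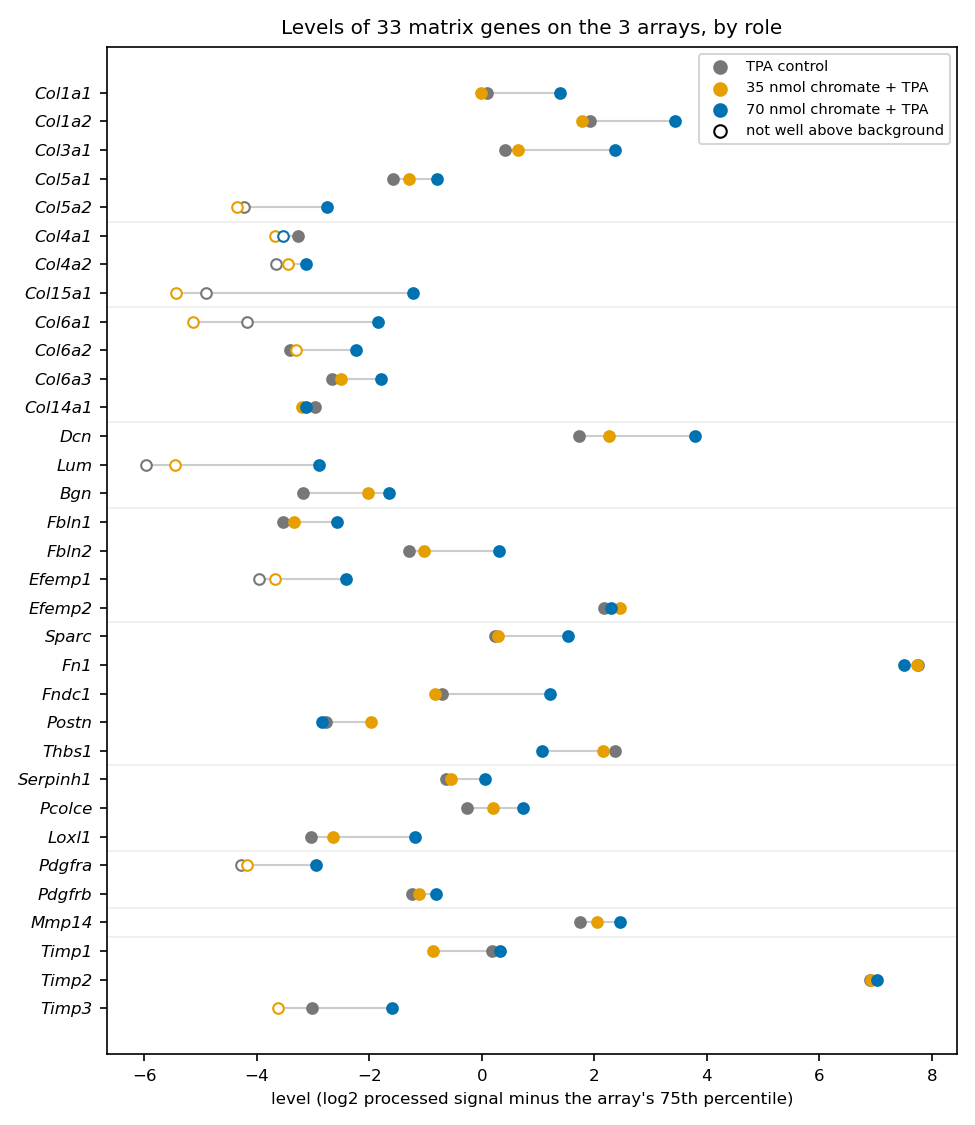
Level (log2 processed signal minus the array's 75th percentile, horizontal axis) of the 33 matrix genes well above background on at least 1 array, grouped by role, with 1 point per array and open points where the probe was not well above background. The 70 nmol point lies to the right for most collagens and proteoglycans, with Dcn at 3.79 against 1.73 on the control array, while Fn1, Timp2 and Efemp2 have their 3 points close together and Thbs1 lies to the left at 1.07.

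Over the whole arrays, 20200, 18907 and 18564 probes (49.1%, 45.9% and 45.1%) were well above background at control, 35 and 70 nmol. The median standard deviation between repeated spots was 0.034 to 0.043, the median between probes of a gene 0.10 to 0.13, and the scanner software's median error of a difference 0.20 to 0.21. These spreads are technical and leave out the spread between animals. The 3 arrays lay on 1 slide, so position and group cannot be told apart. Macrophage markers were present on every array (9 of 9 well above background, summed linear level 688, 765 and 698). That sum includes Lyz2 (levels 7.87, 8.26 and 8.21), whose probe was saturated, so no direction is read from it. Hepatocyte genes stood apart between arrays, with 6, 6 and 2 of 7 well above background and summed levels of 20.3, 58.8 and 0.363. Erythroid genes, summed, stood at 67.0, 11.6 and 35.3. Spike-in scaling lowers every difference from the control by a constant, to an all-gene median of -0.322 at 70 nmol and -0.381 at 35 nmol. Member values that change sign under it are given with both values.

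Fibrillar collagens form the cable-like fibrils that give tissue its tensile strength, and 3 of the 4 measured ones were at least 2-fold higher at 70 nmol (1.63% over all genes). Their median was 1.40 (all genes 0.038). The list was chosen on this contrast, so nothing is read from that count. The stretches of 250 bases before the annotated transcript start are shown for the genes of this role that had an entry in RefSeq's promoter table (assembly GRCm38.p6, all on the + strand), so that the sequences of genes that encode partner chains of mixed fibrils can be set side by side. Capitals mark matches, on either strand, to CCAAT, the GC box GGGCGG, the TATA box TATAAA, and the Smad-binding letters CAGACA, a core associated with TGF-beta signalling. Col1a2 lies at chr6:4505368-4505617, Col3a1 at chr1:45311288-45311537 and Col5a1 at chr2:27886175-27886424.
Col1a2: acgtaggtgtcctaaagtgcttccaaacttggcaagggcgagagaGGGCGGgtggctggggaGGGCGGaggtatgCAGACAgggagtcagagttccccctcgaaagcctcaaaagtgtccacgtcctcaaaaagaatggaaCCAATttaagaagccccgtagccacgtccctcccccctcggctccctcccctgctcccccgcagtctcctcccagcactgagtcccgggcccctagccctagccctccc
Col3a1: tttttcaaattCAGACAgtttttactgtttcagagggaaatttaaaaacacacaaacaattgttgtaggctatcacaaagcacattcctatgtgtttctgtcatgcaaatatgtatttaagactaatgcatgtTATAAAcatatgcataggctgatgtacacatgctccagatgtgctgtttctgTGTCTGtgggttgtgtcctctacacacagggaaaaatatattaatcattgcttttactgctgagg
Col5a1: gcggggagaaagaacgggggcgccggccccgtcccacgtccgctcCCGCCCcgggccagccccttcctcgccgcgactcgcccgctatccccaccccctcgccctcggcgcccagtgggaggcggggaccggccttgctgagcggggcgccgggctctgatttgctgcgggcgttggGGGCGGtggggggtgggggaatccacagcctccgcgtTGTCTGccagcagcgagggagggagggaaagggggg
The windows differ in composition: 62.0% of the bases were G or C in Col1a2, 35.2% in Col3a1 and 76.4% in Col5a1. Col1a2 held GC boxes whose first bases, as printed, lie 205 and 188 bases before the start, CAGACA at 175 and CCAAT at 109, all on the + strand. Col3a1 held no GC box and no CCAAT. It had CAGACA at 239, TATAAA at 117, and CAGACA at 65 on the - strand. Col5a1 held a GC box at 205 on the - strand, another at 73 on the + strand, and CAGACA at 36 on the - strand. CAGACA was the 1 element found in all 3 windows. It occurred in 8 of the 34 windows matched to 29 members (23.5%) and in 17.1% of all 32851 windows of the table. GC boxes occurred in 58.8% of the members' windows and 32.7% of all windows, CCAAT in 20.6% and 33.8%, TATAAA in 17.6% and 12.4%, and the AP-1 letters TGANTCA in 8.82% and 6.75%. The members' windows had a median of 58.0% G and C against 52.4% for all windows. A match is a stretch of letters and not a measured binding site.

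Col1a1, the alpha 1 chain of type I collagen, had processed signals of 287, 203 and 562 at control, 35 and 70 nmol, or levels of 0.09, -0.02 and 1.39. The 70 nmol array was high and the other arrays were close to each other. Its probe (chr11:94767851-94767910, build mm8) was spotted 10 times, with a standard deviation between spots of 0.069, 0.063 and 0.036, and the difference at 70 nmol was 1.30 (scanner error 0.21, 2.46-fold), or 0.94 under spike-in scaling, just short of 2-fold. A second probe gave 1.02. At 35 nmol the probes gave -0.12 and -0.11, within the scanner error. The first became -0.54 under spike-in scaling, beyond that error.

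Col1a2, the alpha 2 chain of the same trimer, had levels of 1.93, 1.79 and 3.44 at control, 35 and 70 nmol (probe at chr6:4490619-4490678, mm8). Its processed signals were 1030, 713 and 2320. The difference was 1.51 at 70 nmol (scanner error 0.20, 2.84-fold) and -0.14 at 35 nmol, so that both chains of type I collagen had the 70 nmol array apart from the others. Under spike-in scaling the Col1a2 value at 35 nmol was -0.56. Between the doses Col1a1 differed by 1.41 and Col1a2 by 1.64.

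Col3a1, which forms the thin fibrils of young and healing tissue together with type I collagen, had levels of 0.41, 0.65 and 2.37 (chr1:45293290-45293349, mm8), from processed signals of 359, 323 and 1110. The difference was 1.95 at 70 nmol (3.87-fold) and 0.24 at 35 nmol, which became -0.18 under spike-in scaling. Col5a1, a chain of the type V collagen that starts fibril formation, had levels of -1.58, -1.30 and -0.79. Its difference of 0.79 at 70 nmol was short of 2-fold. A second, dimmer Col5a1 probe passed the flag on the control array alone (-3.39, against -3.77 at 70 nmol), and the mean of both probes gave 0.20. Its 0.28 at 35 nmol turned to -0.14 under spike-in scaling. Col5a2, its partner chain, was well above background only at 70 nmol, with a level of -2.75. Folds against an array where the probe was dim are bounds: the bright signal was set against that array's dimmest signal still flagged well above background, or against the dim probe's own signal if this was higher. For Col5a2 it was at least 1.86-fold higher than the control and at least 1.57-fold higher than at 35 nmol. The summed linear level of the 5 fibrillar genes was 6.60, 6.47 and 19.3 on the 3 arrays. In these bulk cells, more cells of a type and more RNA per cell cannot be told apart.

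Basement membrane collagens make sheets instead of fibrils, and each of the 3 members was well above background on 1 array only. Col15a1, a collagen of the basement membrane zone, was seen only at 70 nmol, at a level of -1.22, at least 5.37-fold above the control and at least 4.53-fold above 35 nmol. Its processed signals were 9.02, 4.75 and 91.9, so the 70 nmol array alone was bright. Col4a2, of the type IV network, was seen only at 70 nmol (-3.13, at least 1.43-fold and 1.21-fold). Its partner Col4a1 was seen only on the control array (-3.26), close to the limit there, which gives a bound of 1.1-fold lower at 35 nmol and none at 70 nmol. Both type IV chains were thus too dim on most arrays to be put in order.

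Type VI collagen forms beaded filaments around cells from 3 different chains, and each chain was brightest at 70 nmol. Col6a1 was seen only there, with a level of -1.85 and processed signals of 15.0, 5.86 and 59.6, at least 3.48-fold above the control and 2.94-fold above 35 nmol. Col6a2 had levels of -3.40, -3.31 and -2.24, of which the middle one, at 35 nmol, was not well above background. Its difference from the control was 1.16 with a scanner error of 0.37, but 0.48 with normexp and 0.80 with spike-in scaling, both short of 2-fold. It was at least 2.10-fold above 35 nmol. Col6a3 had levels of -2.66, -2.50 and -1.79, a difference of 0.87 at 70 nmol. At 35 nmol it differed by 0.16, or -0.26 under spike-in scaling. Col14a1, a fibril-associated collagen, had -2.96, -3.20 and -3.12, with no array apart: the differences were -0.16 at 70 nmol and -0.24 at 35 nmol.

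Small leucine-rich proteoglycans bind collagen fibrils and growth factors such as TGF-beta. Dcn (decorin), a regulator of fibril width, had levels of 1.73, 2.26 and 3.79 (chr10:96947287-96947346, mm8), from processed signals of 892, 986 and 2960. The control array was lowest, 35 nmol intermediate and 70 nmol highest. The difference was 2.06 at 70 nmol (4.16-fold), which was the largest measured value among the members, and 0.53 at 35 nmol, or 0.11 under spike-in scaling. Bgn (biglycan), the closest relative of decorin, had levels of -3.17, -2.03 and -1.64. Here both chromate arrays were above the control array, 35 nmol by 1.14 and 70 nmol by 1.53, each with a scanner error of 0.31, and they differed from each other by 0.39. Under spike-in scaling the value at 35 nmol was 0.72 and under normexp background correction 0.65, so that its place as the 1 member at least 2-fold higher at 35 nmol did not hold under these settings. Its value at 70 nmol was 0.81 with normexp, short of 2-fold. Lum (lumican) was seen only at 70 nmol (-2.89, at least 1.69-fold above the control and 1.43-fold above 35 nmol). Ogn and Fmod were not well above background on any array. The summed linear level of this role was 3.44, 5.06 and 14.3.

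**Figure D2:**
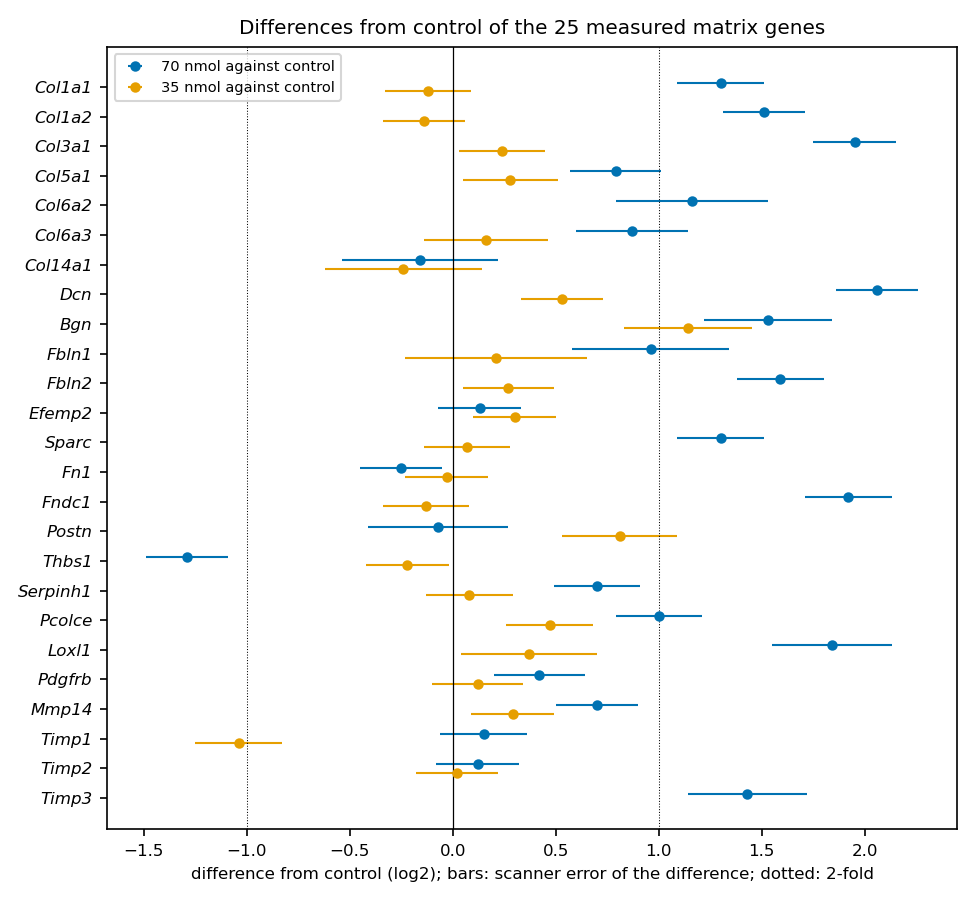
Log2 difference from the control (horizontal axis) of the 25 matrix genes measured at 70 nmol, in blue for 70 nmol and orange for 35 nmol, with bars for the scanner software's error and dotted lines at 2-fold; 2 of them have no value at 35 nmol. Dcn, Col3a1, Fndc1 and Loxl1 reach 1.84 to 2.06 at 70 nmol, Bgn is the 1 gene past 2-fold higher at both doses, and Timp1 lies at -1.04 at 35 nmol and 0.15 at 70 nmol (-0.21 under spike-in scaling).

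Elastic fibres consist of an elastin core in a microfibril scaffold, bridged by fibulins. Eln, Fbn1, Mfap4 and Mfap5, which encode the core and the scaffold, were not well above background on any array, so only fibulins could be compared. Fbln2 had levels of -1.29, -1.02 and 0.30, a difference of 1.59 at 70 nmol (3.02-fold) and 0.27 at 35 nmol, the latter -0.15 under spike-in scaling. Fbln1 had -3.54, -3.33 and -2.58, and its 0.96 at 70 nmol (scanner error 0.38) was the value just outside 2-fold. It was 1.06 with cyclic loess, 1.08 with quantile normalisation and 1.92 with the mean of its probes. That mean takes in a second Fbln1 probe that passed the flag at 70 nmol alone (-3.06, against -5.93 on the control array). The value just inside was the 1.00 of Pcolce. Efemp1 (fibulin 3) was seen only at 70 nmol (-2.42), at least 2.34-fold above the control and 1.97-fold above 35 nmol. Efemp2 (fibulin 4), which brings lysyl oxidase to elastin, had 2.17, 2.46 and 2.29. Its differences of 0.13 at 70 nmol and 0.30 at 35 nmol turned to -0.23 and -0.12 under spike-in scaling.

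Matricellular and adhesive glycoproteins were split between higher and lower values. Sparc, a collagen-binding protein secreted by matrix-forming cells, had levels of 0.23, 0.29 and 1.53, a difference of 1.30 at 70 nmol and 0.07 at 35 nmol, the latter -0.35 under spike-in scaling. Another Sparc probe gave 1.67 and -0.16, and spike-in scaling took the 1.30 to 0.94, just short of 2-fold. Fndc1, a protein with fibronectin type III domains, had -0.70, -0.83 and 1.22, so that the 70 nmol array stood alone by 1.92 (3.77-fold) against the control and 2.05 against 35 nmol.

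Fn1 (fibronectin), which links collagen to integrins and is made in quantity by macrophages, had levels of 7.76, 7.74 and 7.51, with the 3 arrays close together. Its 10 spots varied by 0.017 to 0.021, and the difference at 70 nmol was -0.25 with a scanner error of 0.20. The control level of this probe was close to the 7.86 of Icam2, a gene left unmeasured as saturated. Its small difference is therefore read together with the dimmer probes. The other Fn1 probes gave -0.62, -0.44 and -0.15 at 70 nmol, all of the same sign. Thbs1 (thrombospondin 1), an activator of latent TGF-beta, had 2.36, 2.15 and 1.07 (chr2:117817480-117817539, mm8), from processed signals of 1380, 911 and 450. It was lowest at 70 nmol, by -1.29 from the control, and other probes gave -1.11 and -1.23. At 35 nmol the difference was -0.22. Thbs1 was the 1 member at least 2-fold lower at 70 nmol, and the nearest value outside was the -0.25 of Fn1. Postn (periostin), a matrix protein of healing tissue, followed another order, with -2.77, -1.96 and -2.84: the 35 nmol array was the high one, by 0.81 over the control and 0.88 over 70 nmol (-0.88 as coded, 70 nmol minus 35 nmol). Sparcl1 and Thbs2 were not well above background on any array.

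**Figure D3:**
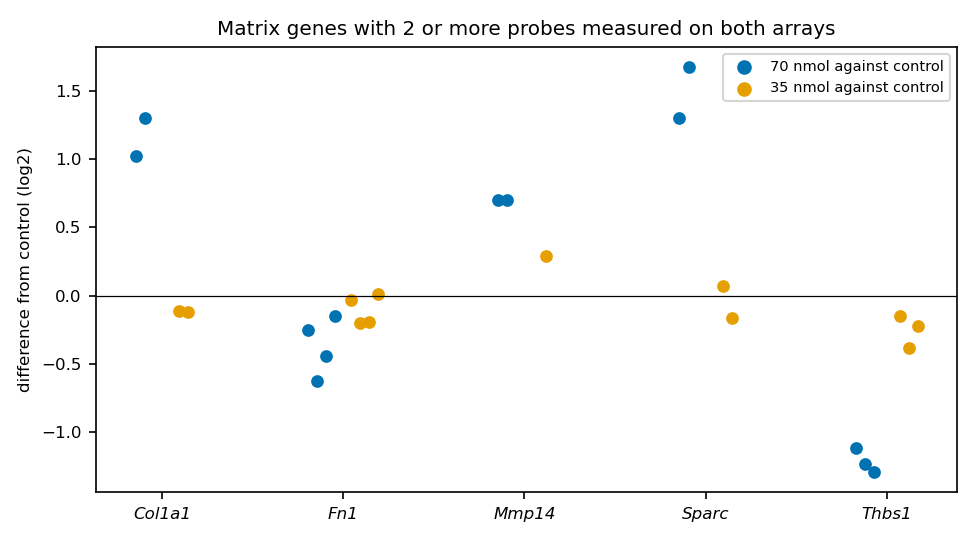
Log2 difference from the control (vertical axis) for each probe of the matrix genes with 2 or more probes measured at 70 nmol and on the control array, in blue at 70 nmol and orange at 35 nmol. The probes shown keep 1 side of 0 at 70 nmol within each gene, with Thbs1 between -1.29 and -1.11, Fn1 between -0.62 and -0.15, and Col1a1 and Sparc between 1.02 and 1.67, as measured with scaling on the 75th percentile.

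Collagen needs help inside and outside the cell before it can form fibres. Serpinh1 (the collagen chaperone HSP47) had levels of -0.64, -0.55 and 0.06, a difference of 0.70 at 70 nmol. Its 0.08 at 35 nmol became -0.34 under spike-in scaling. Pcolce, which speeds the trimming of procollagen, had -0.27, 0.20 and 0.73, with the arrays in order of dose, and differences of 1.00 and 0.47. Its value at 70 nmol ran from 0.64 to 1.00 over 10 alternative settings and was at least 2-fold in 5 of them. Filter, naming and probe-mean settings cannot change the value of a gene with 1 probe. The deposited table holds the same signal less a constant, so none of these settings checks that value. Loxl1, a lysyl oxidase that crosslinks elastin and collagen, had -3.03, -2.65 and -1.19, and was apart at 70 nmol by 1.84 (scanner error 0.29, 3.58-fold), or by 0.88 with normexp, which is short of 2-fold. Its 0.37 at 35 nmol turned to -0.05 under spike-in scaling. Lox, the founding member of that enzyme family, was not well above background on any array.

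Receptors for platelet-derived growth factor mark mesenchymal cells. Pdgfra, a fibroblast receptor, was seen only at 70 nmol (-2.94, over 9 spots), at least 1.63-fold above the control and 1.38-fold above 35 nmol. Pdgfrb, more typical of pericytes, had -1.24, -1.12 and -0.82. It differed by 0.42 at 70 nmol and by 0.12 at 35 nmol, or -0.30 under spike-in scaling, so that no array was apart.

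Of the proteases, only Mmp14, a membrane-bound collagenase that activates other metalloproteinases, was well above background. Its levels were 1.75, 2.04 and 2.45, in order of dose, with differences of 0.70 at 70 nmol on both of its probes and 0.29 at 35 nmol, the latter -0.13 under spike-in scaling. Mmp2 and Mmp3 were not well above background on any array. Among the inhibitors, Timp1 and Timp3 were lowest at 35 nmol and highest at 70 nmol. Timp1, an inducible inhibitor, had 0.18, -0.86 and 0.33, and was the 1 member at least 2-fold lower at 35 nmol, at -1.04 (-0.75 with normexp). Against 35 nmol it was 1.19 higher at 70 nmol, and its 0.15 against the control turned to -0.21 under spike-in scaling. Timp2, which helps Mmp14 activate its target, had 6.90, 6.92 and 7.02, close together at differences of 0.12 and 0.02 (-0.24 and -0.40 under spike-in scaling). Timp3, the inhibitor that binds to matrix, had -3.02, -3.62 and -1.59, of which the middle one, at 35 nmol, was not well above background. It was 1.43 above the control at 70 nmol (scanner error 0.29), 0.67 with normexp, and at least 3.51-fold above 35 nmol.

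Over the 23 members well above background on all 3 arrays, 18 (78.3%) were highest at 70 nmol, 3 (13.0%) on the control array and 2 (8.7%) at 35 nmol. Over all 12326 such genes the shares were 39.8%, 27.8% and 32.4%. The control array was lowest for 15 of the members (65.2%), against 41.9% of all such genes. Because the list was chosen on the 70 nmol contrast, nothing is read from these shares.

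**Figure D4:**
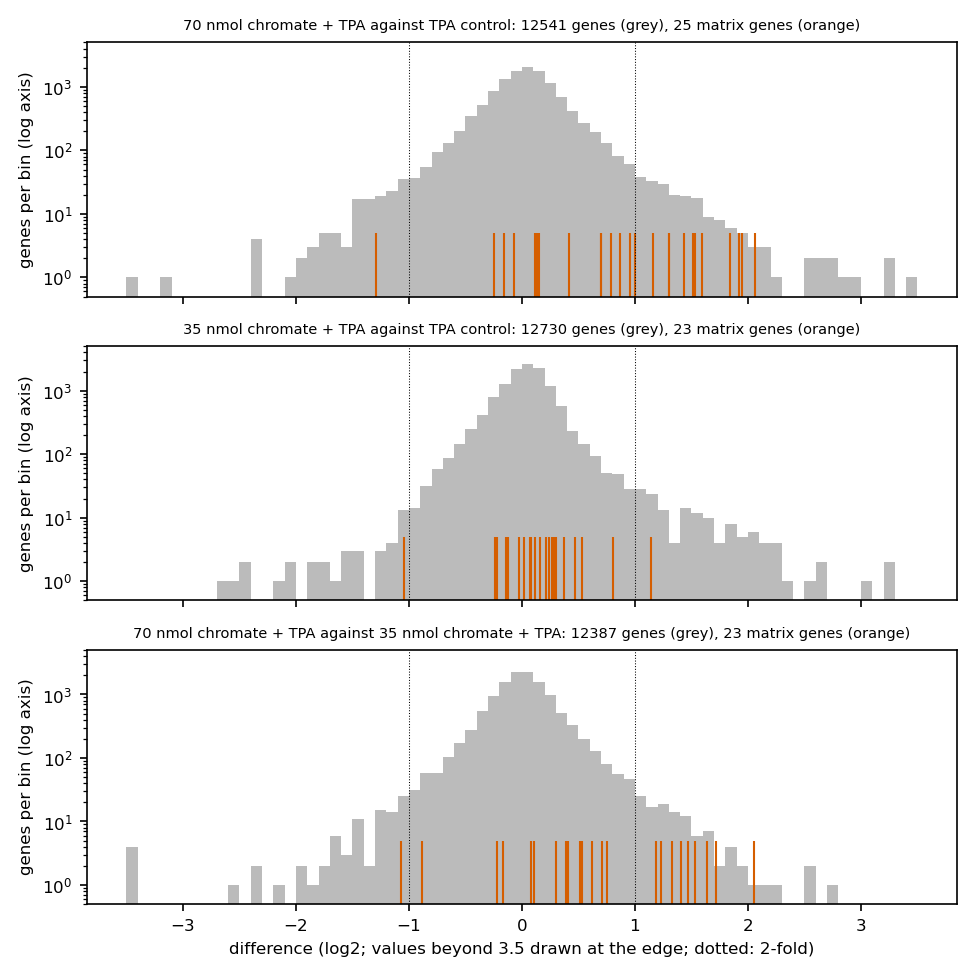
Number of genes (vertical log axis) by log2 difference (horizontal axis) for all measured genes in grey, with the measured matrix genes as orange ticks, for 70 nmol and 35 nmol against control and 70 against 35 nmol. The ticks spread up to 2.06 at 70 nmol around a median of 0.96, and lie around 0.16 at 35 nmol, a median that is -0.26 under spike-in scaling.

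Matrix genes outside the list were read in the same way. Among 23 other collagens, 9 were measured at 70 nmol and 1 was at least 2-fold higher, Col16a1, a fibril-associated collagen, at 1.08 (median 0.06, or -0.30 under spike-in scaling). Spike-in scaling, which shifts values at 70 nmol by -0.36, takes Col16a1 short of 2-fold. Col19a1, named after its value was seen, was well above background only at 70 nmol, at least 3.27-fold above the control, which makes 2 with bounds included. Among 20 collagen-modifying enzymes, 13 were measured and 1 was at least 2-fold higher, Fkbp10, a collagen chaperone of the endoplasmic reticulum, with levels of -1.88, -2.02 and -0.36 and a difference of 1.52. It was thus high at 70 nmol alone, whereas Loxl2, another lysyl oxidase, had 4.93, 3.83 and 4.02 and was lower at both doses, by -0.91 at 70 nmol and -1.10 at 35 nmol. The enzymes' median was -0.18. Laminins and other basement membrane genes had 5 of 14 measured and none of these different by 2-fold or more (median -0.06). Lama3, a laminin chain named after its value was seen, was not well above background at 70 nmol, at least 3.3-fold below the control.

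Among 24 other proteases and inhibitors, 9 were measured and 2 were at least 2-fold higher: Plat, the tissue plasminogen activator, by 1.34 and Mmp23 by 1.15 (from a dim control level of -3.39). With Adamts1, named after its value was seen and detected only at 70 nmol (at least 2.13-fold), these are 3. Of 13 matrix receptors, 8 were measured and 2 were at least 2-fold higher. Itga5, the alpha chain of the fibronectin receptor, had -1.48, -0.99 and -0.28, a difference of 1.20, and Itgb5 one of 1.03. Itga1, a collagen-binding integrin, was highest at 35 nmol, by 1.04. Spike-in scaling shifts values by -0.36 at 70 nmol and -0.42 at 35 nmol. It takes Plat, Mmp23, Itga5 and Itgb5 at 70 nmol, and Itga1 at 35 nmol, short of 2-fold. Of 7 PDGF and FGF ligands, 2 were measured. Pdgfb, the B chain of platelet-derived growth factor, was 1.48 above the control at 70 nmol, from a dim control level of -3.13.

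TGF-beta is the best known inducer of collagen transcription. Of 23 genes of its pathway, 18 were measured at 70 nmol, 0 were higher by 2-fold or more and 1 was lower by 2-fold or more, Ltbp1, which anchors latent TGF-beta in the matrix, with levels of 2.56, 2.14 and 1.17 and a difference of -1.39. The pathway's median was 0.10, or -0.26 under spike-in scaling, with 11 values above the control and 7 below. Tgfbi, a gene named after its value was seen, lay just short of 2-fold higher at 0.99, with levels of 5.54, 5.92 and 6.53. Between doses, 1 pathway gene was at least 2-fold higher at 70 nmol, Tgfb3, at 1.03. The ligand genes, named after their values were seen, had no common direction: Tgfb1 differed by 0.15 (under 0.36, the constant by which spike-in scaling lowers values at 70 nmol), Tgfb2 by -0.75 and Tgfb3 by 0.81.

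Markers of cells that make matrix were set beside these values, without the 44 genes themselves. Of 21 fibroblast markers, 12 were well above background on some array, and 11 were measured at 70 nmol: 3 were higher by 2-fold or more and 0 lower by as much (median 0.75). The list was divided, with 6 values above the control and 5 below. Igfbp6 was 1.84 higher, Cd248 1.79 and Igfbp5 1.64, whereas Pi16, the lowest of the measured ones, differed by -0.53 and Thy1 by -0.13. The control level of Igfbp5, -3.49, was near the lowest level flagged well above background there, -3.65, and it missed the flag at 35 nmol. Cxcl12, named after its value was seen, missed that flag at 70 nmol and lay at least 4.86-fold below the control. The summed linear level of the fibroblast list was 39.2, 39.7 and 39.4, and Pdpn, Dpt, Fap, Prrx1, Twist1, Tcf21, Scara5, Gas1 and Cilp were not well above background on any array.

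Of 14 mesothelial markers, 8 were well above background on some array and 7 were measured, of which 1 was at least 2-fold higher at 70 nmol (median 0.68, summed level 2.88, 3.09 and 4.03). Of the 7, 5 lay above the control and 2 below. Nkain4 was 1.60 higher and the defining marker Msln (mesothelin) 0.68, whereas the keratin genes Krt7 and Krt18 differed by -0.47 and -0.20. Wt1, a transcription factor of the mesothelium, was seen only at 70 nmol, at least 1.46-fold above the control, whereas Upk3b, Lrrn4 and Muc16 were not well above background on any array. Smooth muscle and pericyte markers had 4 of 10 measured and none different by 2-fold or more, with Acta2 at 0.21 (under the spike-in constant of 0.36) and Myh11, Cnn1 and Des not well above background. Endothelial markers had 3 of 10 measured (median -0.19), with Cdh5 and Kdr not well above background. The part of fibroblast and mesothelial RNA in the collagen values was not tested.

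Measured genes of the large resident peritoneal macrophage lay below the control at 70 nmol. Of its 8 markers 7 were measured there, and 5 were at least 2-fold lower (1.08% over all genes). Their median was -1.11 at 70 nmol and -0.28 at 35 nmol. The summed linear level of all 8 was 515, 548 and 404. That sum includes Icam2 (levels 7.86, 8.22 and 8.10), left unmeasured as saturated, which is a large part of it. No direction is therefore read from the sum. General macrophage markers had 8 of 9 measured and none different by 2-fold or more (median 0.12, or -0.24 under spike-in scaling). Of 7 mast cell markers, 6 were measured and 4 were at least 2-fold lower at 70 nmol (1.08% over all genes). Their median was -1.56 at 70 nmol and -0.70 at 35 nmol, with summed levels of 34.7, 22.8 and 13.5. The part of these shifts in the matrix values was not tested.

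**Figure D5:**
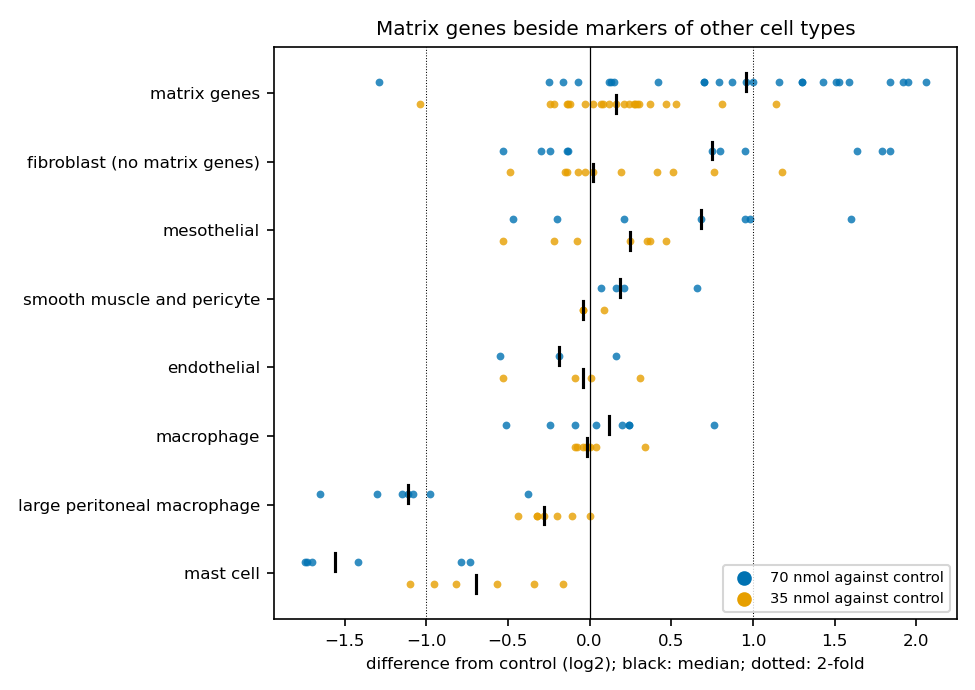
Log2 difference from the control (horizontal axis) of the measured matrix genes and of the measured markers of other cell types, 1 point per gene, with the median of each list in black and dotted lines at 2-fold. At 70 nmol the medians are 0.96 for matrix genes, 0.75 for fibroblast and 0.68 for mesothelial markers and -1.11 for large peritoneal macrophage markers; smooth muscle (0.18) and macrophage (0.12) medians fall below 0 under spike-in scaling.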

How the data were processed

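Intensities were extracted by the authors with Agilent Feature Extraction 10.5.1.1, per the file headers. The deposited processed signal is background-subtracted; the mean and background intensity columns served 1 alternative. Probe positions are those of build mm8, per the file headers. The value table deposited by the authors is in log2 and equalled the log2 processed signal minus 8.00, 7.61 and 7.67 (control, 35 and 70 nmol) within 0.01 for 99.8%, 99.8% and 99.9% of probes well above background, with column medians of -3.60, -3.74 and -3.78. Its genes are thus not centred.

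Here the log2 processed signal was scaled by each array's 75th percentile over 43379 spots that are not controls (8.07, 7.69 and 7.74). Outlier spots were left out, and spots of a probe were averaged. Of 41174 probes, 24375 were named through their accession in RefSeq's GRCm38.p6 table, 6301 by symbol and 2426 by synonym, and 8072 kept the file's name. Each gene was read from 1 probe, the brightest of those flagged well above background (multiple 13) on some array. Saturated probes were not measured. The error of a difference combines the scanner software's errors of both signals; the number of arrays limits precision, and with 1 array per group no p-value is given. Summed levels add 2 to the power of each level over the genes of a list well above background on some array, saturated ones included.

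The members, lists and the naming rule were chosen with earlier results of these data known. The rule covered all members, with counts and up to 3 genes at least 2-fold different for each other list. Promoter windows of 250 bases came from RefSeq's table, leaving out the 50 bases after the start; 29 of the 44 members matched. The gene and comparison steps were tested on simulated levels, with known changes placed in brighter genes and the same background flags on every array. Bounds, saturation, outliers and changes in dim genes were not covered by that test. Alternatives were other background corrections, scalings, filters, thresholds, names and probe rules. Normalisation used limma 3.58.1 (R 4.3.3), and tables and plots used pandas 2.3.3, numpy 2.4.6 and matplotlib 3.10.9 (Python 3.11.15).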

Additional observations from a re-analysis of the deposited data

Results flagged for a closer look

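For 4 members the value lay on opposite sides of the control at the 2 doses, with at least a 2-fold difference between doses. Col1a1 differed by 1.30 at 70 nmol and -0.12 at 35 nmol, which is 1.41 between doses. Col1a2 differed by 1.51 and -0.14, or 1.64 between doses, and Fndc1 by 1.92 and -0.13, or 2.05. The values of these 3 genes at 35 nmol were within the scanner error. Spike-in scaling shifts values at 35 nmol by -0.42, which takes all 3 beyond that error, with Col1a1 at -0.54 and Col1a2 at -0.56. Timp1, the inhibitor, had the same signs, but its value far from the control was the one at 35 nmol: 0.15 at 70 nmol, within the scanner error, and -1.04 at 35 nmol, or 1.19 between doses. Under spike-in scaling its 0.15 became -0.21, so that both values then lay below the control. These differences between doses were not tested, since each dose had 1 array.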

How the results depend on the processing

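Over 71 gene values, 677 alternative values were computed, of which 601 moved by less than the scanner error and 76 by more, and no value of at least 2-fold changed sign. Many of the 601 could not move. The filters reuse the same values, the deposited table holds the same signals less a constant, and a gene with 1 flagged probe equals its probe mean. The 601 are therefore no measure of stability. The 12 members at least 2-fold higher at 70 nmol became 7 with normexp background correction, 7 with a stricter filter on dim probes and 5 at 3-fold, and were 8 with spike-in scaling; the 1 lower became 0 at 3-fold. Against 35 nmol, the 9 higher became 17 with a looser filter, 5 with the stricter one and 3 at 3-fold, and the 1 lower became 2 at 1.5-fold and 0 at 3-fold, with normexp or with the mean of a gene's probes. At 35 nmol, the 1 higher became 2 at 1.5-fold and 0 at 3-fold, with normexp, spike-in scaling or the stricter filter, and the 1 lower became 0 at 3-fold, with normexp or the stricter filter. The members' median at 70 nmol moved from 0.96 to 0.60 with normexp and 0.60 with spike-in scaling, that at 35 nmol from 0.16 to -0.26 with spike-in scaling, and that between doses from 0.62 to 0.40 with normexp and 1.13 with the looser filter.

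Over all genes, those at least 2-fold different at 70 nmol (340) became 1176 at 1.5-fold, 71 at 3-fold, 1203 with the looser and 123 with the stricter filter, and 128 with normexp. At 35 nmol, 181 became 622, 63, 931, 37 and 65 in that order, and 322 with spike-in scaling. Between doses, 203 became 807, 40, 853, 59 and 59. Spike-in scaling (4 of 10 spike-in probes) turned the split at 70 nmol from 60.0% to 17.9% higher and at 35 nmol from 79.0% to 22.0%. Under it 18 of 25 members stayed positive at 70 nmol and 4 of 23 at 35 nmol. The threshold filters and folds change counts by their own construction; for the other settings the cause was not tested. Dim members, at levels near -3, sit close to background, where signal limits the precision most. No paired analysis was possible because each group had 1 array.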
